A study of Mus musculus with 12 samples.

Results

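The alveolar macrophage identity genes described here are 10 genes: Siglecf, Marco, Mrc1, Itgax, Plet1, Car4, Fabp4, Pparg, Cebpb and Bhlhe41. They were taken by symbol from a deposited table of 38349 genes, in which none of the symbols was repeated, and all 10 were abundant enough to be tested. The study sequenced messenger RNA of whole lung from wild type mice in 4 groups of 3 libraries. Control was the normal group, ALI was the acute lung injury model made with hypoxia and LPS (lipopolysaccharide, a component of bacterial cell walls), and the MSC and tpMSC groups were the injury model with 1 of the 2 treatments. The labels do not spell out MSC or tpMSC, and the sources used here give no strain, age, dose, route or time of sampling. Whether the replicates came from different mice is not stated either, and the p-values cover the spread among these libraries alone, which may be technical.

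Alveolar macrophages live on the air side of the alveoli, where they clear inhaled particles, microbes and spent surfactant. Their programme is set up after birth by GM-CSF (Csf2) from the alveolar epithelium and by TGF-beta, which induce the nuclear receptor PPAR gamma on top of the myeloid factor PU.1 (Spi1). PPAR gamma turns on genes for lipid handling, and the repressors Bhlhe40 and Bhlhe41 keep other macrophage programmes off. Several of the genes are shared with other cells. Siglecf is also made by eosinophils, Itgax by dendritic cells, Mrc1 by interstitial macrophages, Car4 by a class of lung capillary endothelium, Fabp4 by adipocytes and endothelium, and Cebpb by many cell types in inflammation. In whole lung RNA, fewer cells of a type and less RNA per cell cannot be told apart.

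The bases just before the start sites of 4 genes, each with a motif match, are shown. Siglecf, Mrc1 and Bhlhe41 are among the 6 genes that fell in injured lungs, and Marco, a receptor like the first 2, did not pass the test. Pparg, Plet1 and Car4 fell as well and are not shown. The bases are RefSeq sequences on build GRCm38.p6, written 5′ to 3′ along the gene and ending before the first annotated base of the gene. Capitals mark the PU.1 core motif GAGGAA, or TTCCTC where it lies on the opposite strand, in Siglecf, Mrc1 and Marco, and the E-box CACGTG in Bhlhe41.
Siglecf, chr7:43351091-43351340, plus strand: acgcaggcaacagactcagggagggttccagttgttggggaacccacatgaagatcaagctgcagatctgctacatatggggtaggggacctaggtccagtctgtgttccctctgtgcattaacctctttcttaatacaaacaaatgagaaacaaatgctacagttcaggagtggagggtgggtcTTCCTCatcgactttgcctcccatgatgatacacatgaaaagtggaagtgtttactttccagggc
Mrc1, chr2:14229164-14229391, plus strand: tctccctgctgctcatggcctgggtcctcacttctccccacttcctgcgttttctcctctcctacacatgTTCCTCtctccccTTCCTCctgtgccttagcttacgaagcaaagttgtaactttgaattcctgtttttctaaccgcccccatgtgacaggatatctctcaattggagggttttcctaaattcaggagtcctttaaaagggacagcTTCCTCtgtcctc
Marco, chr1:120505025-120505274, minus strand: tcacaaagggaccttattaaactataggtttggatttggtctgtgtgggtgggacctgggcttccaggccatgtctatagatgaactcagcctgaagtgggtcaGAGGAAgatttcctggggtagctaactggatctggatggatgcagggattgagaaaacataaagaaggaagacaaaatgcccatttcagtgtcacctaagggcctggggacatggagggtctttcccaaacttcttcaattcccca
Bhlhe41, chr6:145865559-145865670, minus strand: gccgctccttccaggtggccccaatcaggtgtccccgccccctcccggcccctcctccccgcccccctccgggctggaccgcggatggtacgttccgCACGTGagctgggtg
A RefSeq promoter was matched for 9 of the 10 genes, with 11 start sites between them, and the 250 bases before each start were searched on both strands. The PU.1 core was found for 4 of these 9 genes, Siglecf, Mrc1, Marco and Pparg, with 3 matches before Mrc1. This motif was in 4 of the 11 windows of these genes, against 23.3% of 32851 promoter windows of that length. The E-box was found before Bhlhe41 alone, in 1 of the 11 windows, against 6.02% of all windows. The C/EBP motif TTGCNNAA and the nuclear receptor half-site AGGTCA were each found before Pparg and Plet1. They were in 2 and 3 of the 11 windows, against 9.56% and 14% of all windows. No motif contains another, and a match is a description of the letters, not a binding site.

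Libraries held 53083002 to 70209229 counts, and the smallest count behind any value of the 10 genes was 68, for Marco in MSC replicate 3. Levels are given as deposited FPKM (fragment counts scaled by transcript length and library depth), in the order of replicates 1, 2 and 3, and group means as mean ± SD over 3 libraries. Fold changes are on the log2 scale with their standard error from edgeR, fitted over 22915 genes in all 12 libraries. Calls were made where the Benjamini-Hochberg adjusted p was under 0.05. All 10 genes had reads in every library. The lung label was checked with Sftpc, Sftpb, Ager, Hopx and Nkx2-1, whose summed level was 4743.79 FPKM or more in every library. These lung genes moved as well: their sum was 13070.8 to 13905.1 FPKM in Control, 4743.79 to 7280.22 in ALI, 8400.1 to 9900.2 in MSC and 8535.58 to 11226.2 in tpMSC, with 4 of 5 lower in ALI than in Control and 4 of 5 higher in tpMSC than in ALI. Of 5 airway secretory markers 3 fell and 1 rose in ALI, and 3 rose in tpMSC against ALI. The part of these cells in the results below was not tested. On the scale of log2(FPKM + 0.1), the MSC group had the largest SD of the 4 groups for 9 of the 10 genes, Fabp4 being the exception, and for 38.3% of all genes tested. The results that rest on MSC replicate 2 or 3 are therefore also given without them.

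**Figure D1:**
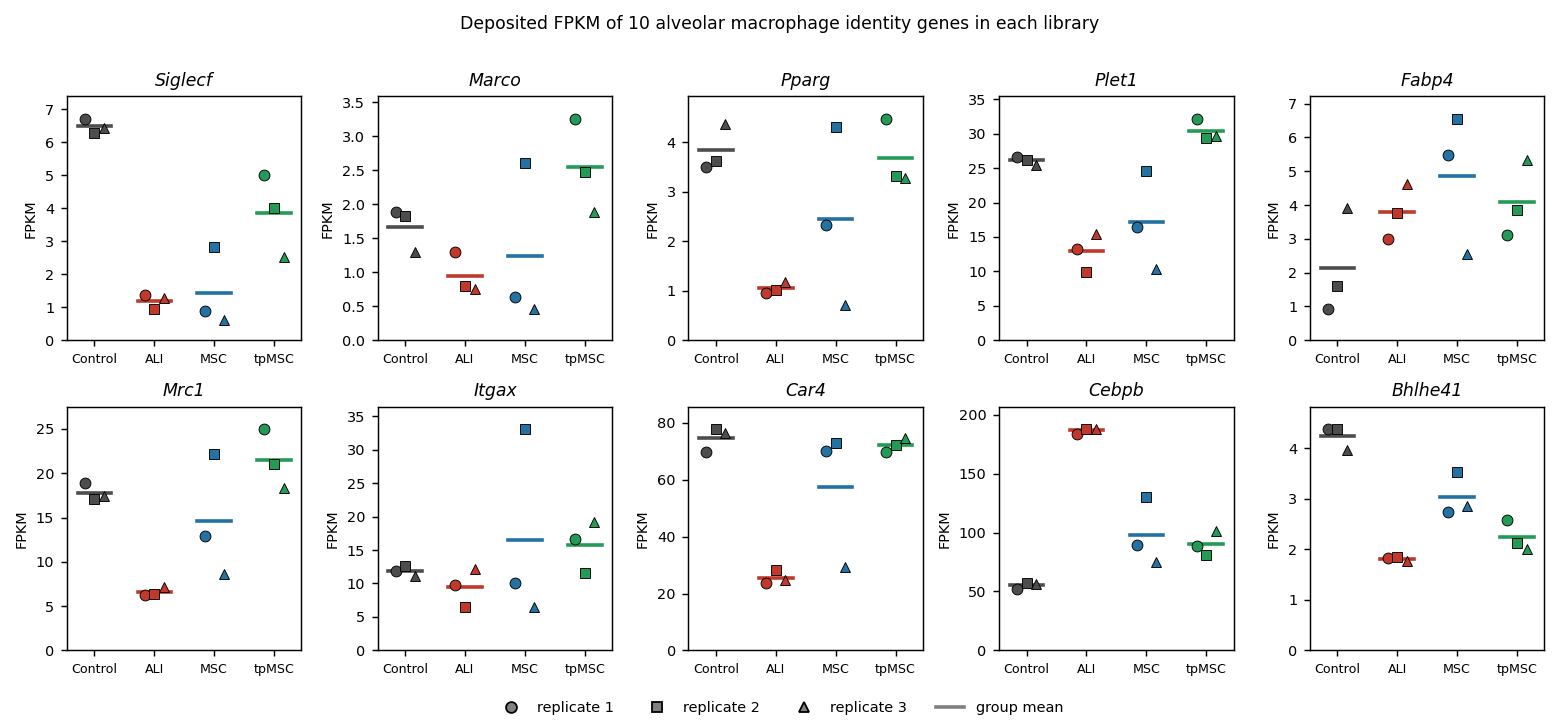
Deposited FPKM of each gene (y axis, linear, from 0) in the 4 groups (x axis), with 1 point for each of the 3 libraries and a bar at the group mean. Marker shape gives the replicate number; the MSC square (replicate 2) is the highest MSC point in all 10 panels, and the MSC triangle (replicate 3) is the lowest in all except Bhlhe41.

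Injury was compared with Control first. In ALI lungs 6 of the 10 genes fell, 1 rose and 3 did not pass the test. Siglecf, Pparg, Car4, Mrc1, Bhlhe41 and Plet1 were lower, by 1.94-fold for Plet1 to 5.19-fold for Siglecf, and Cebpb was 3.53-fold higher. In this comparison 39.8% of all genes tested were called, 19.6% as lower and 20.2% as higher. The 10 genes had a median log2 fold change of -1.06, beside -0.02 for all genes tested. The ALI libraries lay wholly below the Control libraries for 6 of the 10 genes, against 31.8% of all genes tested, and wholly above for Cebpb alone, against 23.8%.

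Among the surface receptors, Siglecf, a lectin that binds sialic acid, showed the widest fall (ENSMUSG00000039013, GRCm38 chromosome 7, 43351341 to 43359531, plus strand). It measured 6.72, 6.29 and 6.44 FPKM in Control, 1.36, 0.94 and 1.27 in ALI, 0.89, 2.82 and 0.61 in MSC, and 5.02, 4.02 and 2.53 in tpMSC. Every Control library was above every other library, and every tpMSC library was above every ALI library. Siglecf fell by 2.38 ± 0.46 on the log2 scale in ALI against Control (adjusted p = 0.00162). It was 3.16-fold higher in tpMSC than in ALI (log2 1.66 ± 0.45, adjusted p = 0.0212), a call that was lost without any one ALI library or without tpMSC replicate 1 or 2 (highest adjusted p = 0.0786). In MSC it was not separated from ALI (log2 0.22 ± 0.45, adjusted p = 0.823) and was below Control (log2 -2.16 ± 0.46, adjusted p = 0.00757; -3.1 without MSC replicate 2). The levels ran from Control through tpMSC and MSC to ALI, and no neighbours in that order passed the test, tpMSC against Control included (log2 -0.72 ± 0.44, adjusted p = 0.304). Eosinophil markers summed to between 1.32 and 2.24 FPKM in Control and between 1.56 and 1.79 in ALI, and Epx was at most 0.03. With edgeR 0 of the 3 tested of 5 markers were called between those groups, 0 also having an unadjusted p under 0.05. In tpMSC against ALI 1 of the 3 tested markers, the receptor gene Il5ra, was called lower with edgeR (log2 -1.81, adjusted p = 0.0239), and 2 were not called. The part of eosinophils in the Siglecf values was not tested.

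Mrc1, the mannose receptor CD206 (ENSMUSG00000026712, chromosome 2, 14229392 to 14332057, plus strand), was read at 18.90, 17.09 and 17.40 FPKM in Control and at 6.28, 6.36 and 7.21 in ALI. The MSC libraries had 12.93, 22.23 and 8.64 FPKM, and the tpMSC libraries 25.03, 21.03 and 18.39. All treated libraries were above all ALI libraries, and MSC replicate 3 was the nearest to them. Mrc1 was 2.58-fold lower in ALI than in Control (log2 -1.37 ± 0.26, adjusted p = 0.00125). It was higher than in ALI by 2.13-fold in MSC (log2 1.09 ± 0.25, adjusted p = 0.0197) and by 3.19-fold in tpMSC (log2 1.67 ± 0.26, adjusted p = 0.000934). The MSC call was lost without any one of the ALI libraries (highest adjusted p = 0.0815). The means ran from tpMSC (21.5 ± 3.34) through Control (17.8 ± 0.968) and MSC (14.6 ± 6.95) to ALI (6.62 ± 0.515), and the only neighbours that passed the test were MSC and ALI. The interstitial macrophage markers, another source of Mrc1, summed to between 132.09 and 150.86 FPKM in Control and between 385.74 and 435.68 in ALI, where 8 of 10 rose and 1 fell; their part in the Mrc1 values was not tested.

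Plet1, a surface protein anchored through a lipid tail (ENSMUSG00000032068, chromosome 9, 50494525 to 50505482, plus strand), gave 26.69, 26.24 and 25.52 FPKM in Control and 13.32, 9.88 and 15.49 in ALI. It gave 16.46, 24.66 and 10.37 FPKM in MSC and 32.22, 29.41 and 29.65 in tpMSC. The tpMSC libraries were above all 9 others, and the MSC libraries spread from the ALI range to just under Control. Plet1 fell in ALI (log2 -0.96 ± 0.24, adjusted p = 0.00792) and was 2.32-fold higher in tpMSC than in ALI (log2 1.21 ± 0.24, adjusted p = 0.00415). The MSC difference from ALI did not pass the test (log2 0.36 ± 0.24, adjusted p = 0.4). In the order tpMSC, Control, MSC and ALI no neighbours passed it. The annotation has an antisense gene, Plet1os, that shares 261 of the 1947 exonic bases of Plet1. No source used here gives the strand setting of the counting, so reads of the 2 genes cannot be told apart in the shared bases.

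Marco, a scavenger receptor that binds bacteria and dust (ENSMUSG00000026390, chromosome 1, 120474538 to 120505024, minus strand), was low in all groups. It was at 1.89, 1.82 and 1.29 FPKM in Control, 1.29, 0.79 and 0.75 in ALI, 0.63, 2.61 and 0.46 in MSC, and 3.26, 2.48 and 1.88 in tpMSC. ALI replicate 1 equalled the lowest Control library, and the tpMSC libraries were all above the ALI ones. The means ran from tpMSC through Control and MSC to ALI, and none of the 6 comparisons passed the test. The nearest to it was tpMSC against ALI (2.63-fold, log2 1.39 ± 0.54, adjusted p = 0.0834), which was called with DESeq2 (adjusted p = 0.0229), without MSC replicate 2 (0.00429) and without MSC replicate 3 (0.0411). Against Control, ALI had a log2 fold change of -0.75 ± 0.53 (adjusted p = 0.293), called without MSC replicate 2 (0.0493). The MSC libraries are in neither of these 2 comparisons and enter them through the estimate of the spread, which all groups share.

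Itgax, the integrin chain CD11c (ENSMUSG00000030789, chromosome 7, 128129547 to 128150657, plus strand), measured 11.88, 12.64 and 11.18 FPKM in Control and 9.83, 6.47 and 12.14 in ALI. Its MSC libraries stood at 10.04, 33.14 and 6.53 FPKM, the widest spread of its 4 groups, and its tpMSC libraries at 16.62, 11.56 and 19.16. In the order MSC, tpMSC, Control and ALI the groups overlapped in all 6 comparisons, and none passed the test (ALI against Control log2 -0.27 ± 0.47, adjusted p = 0.692). Without MSC replicate 2, Itgax was called higher in tpMSC than in ALI (log2 0.71, adjusted p = 0.0489, against 0.314 with all libraries). Dendritic cell markers, another source of Itgax, summed to between 32.82 and 36.98 FPKM in Control and between 13.85 and 16.93 in ALI, where 3 of 6 fell and 1 rose. They summed to 22.69, 12.99 and 16.49 FPKM in MSC replicates 1, 2 and 3, and to between 15.93 and 20.29 in tpMSC. The part of these cells in the Itgax values was not tested.

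The enzyme and the lipid carrier behaved differently from each other. Car4, a carbonic anhydrase on the cell surface (ENSMUSG00000000805, chromosome 11, 84957786 to 84966044, plus strand), stood at 69.78, 77.97 and 76.29 FPKM in Control and at 23.67, 28.32 and 24.66 in ALI. Its MSC values were 70.23, 72.97 and 29.27 FPKM and its tpMSC values 69.64, 72.12 and 74.64. MSC replicates 1 and 2 were inside the tpMSC range, while MSC replicate 3 was just above the ALI range. Car4 fell in ALI (log2 -1.49 ± 0.25, adjusted p = 0.00067) and was higher than in ALI by 2.17-fold in MSC (adjusted p = 0.0167) and 2.77-fold in tpMSC (adjusted p = 0.00175). The MSC call was lost without ALI replicate 1, ALI replicate 3 or MSC replicate 1 (highest adjusted p = 0.0726). In tpMSC the log2 difference from Control was -0.01 ± 0.25 (adjusted p = 0.978). Of the neighbours in the order Control, tpMSC, MSC and ALI, the only ones that passed the test were MSC and ALI. Capillary endothelium markers summed to between 558.19 and 576.14 FPKM in Control, 288.77 and 336.34 in ALI, and 443.98 and 480.71 in tpMSC. In MSC replicates 1, 2 and 3 they summed to 455.83, 375.70 and 354.06 FPKM. Of these 9 markers 8 fell in ALI, and 4 rose in MSC and 7 in tpMSC against ALI. Against Control, 6 were lower in MSC and 3 in tpMSC. The part of these cells in the Car4 result was not tested.

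Fabp4, a carrier of fatty acids and a PPAR gamma target (ENSMUSG00000062515, chromosome 3, 10204088 to 10208576, minus strand), was at 0.92, 1.59 and 3.91 FPKM in Control and at 2.99, 3.77 and 4.63 in ALI. The treated libraries had 5.47, 6.56 and 2.55 FPKM in MSC and 3.12, 3.84 and 5.33 in tpMSC. Control replicate 3 was inside the range of every other group, the means ran from MSC through tpMSC and ALI to Control, and no comparison passed the test (ALI against Control log2 0.89 ± 0.47, adjusted p = 0.155). Without Control replicate 3, Fabp4 was called higher than Control in ALI (log2 1.65, adjusted p = 0.00985), in MSC (1.95, 0.0132) and in tpMSC (1.74, 0.0255). Adipocyte markers summed to 21.78 FPKM in Control replicate 3 and to 2.92 and 4.47 in Control replicates 1 and 2. Across groups their sum ran from 2.37 to 8.99 FPKM in ALI, 1.34 to 23.35 in MSC and 5.35 to 30.58 in tpMSC, 0 of the 5 tested of 6 markers were called between ALI and Control with edgeR, 0 also having an unadjusted p under 0.05, and Lep was at most 0.08; their part in the Fabp4 values was not tested.

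The 3 transcription factors moved in both directions. Pparg, the nuclear receptor PPAR gamma (ENSMUSG00000000440, chromosome 6, 115360951 to 115490399, plus strand), measured 3.51, 3.63 and 4.37 FPKM in Control, 0.95, 1.02 and 1.17 in ALI, 2.32, 4.30 and 0.71 in MSC, and 4.48, 3.31 and 3.27 in tpMSC. MSC replicate 2 was inside the Control range, replicate 1 between Control and ALI, and replicate 3 below every ALI library. Pparg fell in ALI by 3.51-fold (log2 -1.81 ± 0.45, adjusted p = 0.00716) and was 3.45-fold higher in tpMSC than in ALI (log2 1.79 ± 0.45, adjusted p = 0.0142). The tpMSC call was lost without ALI replicate 1 (adjusted p = 0.0563) or tpMSC replicate 1 (0.0507). The MSC difference from ALI was 1.17 ± 0.44 on the log2 scale and not called (adjusted p = 0.123); without MSC replicate 3 it was 1.61 and called (0.0034), and without MSC replicate 2 it was 0.48 (0.458). From Control (3.84 ± 0.466) through tpMSC (3.69 ± 0.687) and MSC (2.44 ± 1.80) to ALI (1.05 ± 0.112), no neighbours passed the test.

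Cebpb, the factor C/EBP beta (ENSMUSG00000056501, chromosome 2, 167688915 to 167690418, plus strand), was the gene of the set that rose in injury. It stood at 52.42, 57.26 and 56.03 FPKM in Control, 183.93, 188.09 and 188.21 in ALI, 89.55, 130.23 and 75.37 in MSC, and 88.57, 80.94 and 101.05 in tpMSC. The ALI libraries were above all others and the Control libraries below all others. The rise in ALI was 1.82 ± 0.16 on the log2 scale (adjusted p = 9.33e-06). Both treated groups were lower than ALI, with log2 fold changes of -0.97 ± 0.16 in MSC (adjusted p = 0.00351) and -1.07 ± 0.16 in tpMSC (adjusted p = 0.000778). Both stayed above Control, by 1.79-fold in MSC (adjusted p = 0.00437) and 1.67-fold in tpMSC (adjusted p = 0.0104), so all neighbours in the order ALI, MSC, tpMSC and Control passed the test except MSC and tpMSC. Tmem189 on the opposite strand shares 312 of the 1504 exonic bases of Cebpb. With the strand setting unknown, reads of these 2 genes cannot be told apart in the shared bases. Neutrophil markers, of which 8 of 8 rose in ALI, summed to between 143.70 and 237.55 FPKM in Control and between 3749.45 and 4248.25 in ALI, and 8 of 8 fell in each treated group against ALI; monocyte markers rose in 7 of 8 cases in ALI. The part of these cells in the Cebpb values was not tested.

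Bhlhe41, a repressor of the basic helix-loop-helix family (ENSMUSG00000030256, chromosome 6, 145858243 to 145865558, minus strand), had its own order of groups. It was at 4.39, 4.38 and 3.96 FPKM in Control, 1.82, 1.85 and 1.77 in ALI, 2.74, 3.53 and 2.85 in MSC, and 2.58, 2.12 and 2.01 in tpMSC. No library of one group overlapped another group, and the order was Control, MSC, tpMSC and ALI, where the only neighbours that passed the test were Control and MSC. Bhlhe41 fell in ALI (log2 -1.16 ± 0.12, adjusted p = 1.83e-05) and was higher than in ALI in MSC (log2 0.69 ± 0.12, adjusted p = 0.0038), with no call in tpMSC (log2 0.27 ± 0.12, adjusted p = 0.116). Against Control it stayed lower in MSC (log2 -0.47 ± 0.11, adjusted p = 0.0156) and in tpMSC (log2 -0.89 ± 0.12, adjusted p = 0.00104). The MSC call was lost without Control replicate 1, Control replicate 2 or MSC replicate 3 (highest adjusted p = 0.0644). The predicted gene Gm43909 on the opposite strand shares 1280 of the 6720 exonic bases of Bhlhe41. Since the strand setting of the counting is not known, reads of these 2 genes cannot be told apart in the shared bases.

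**Figure D2:**
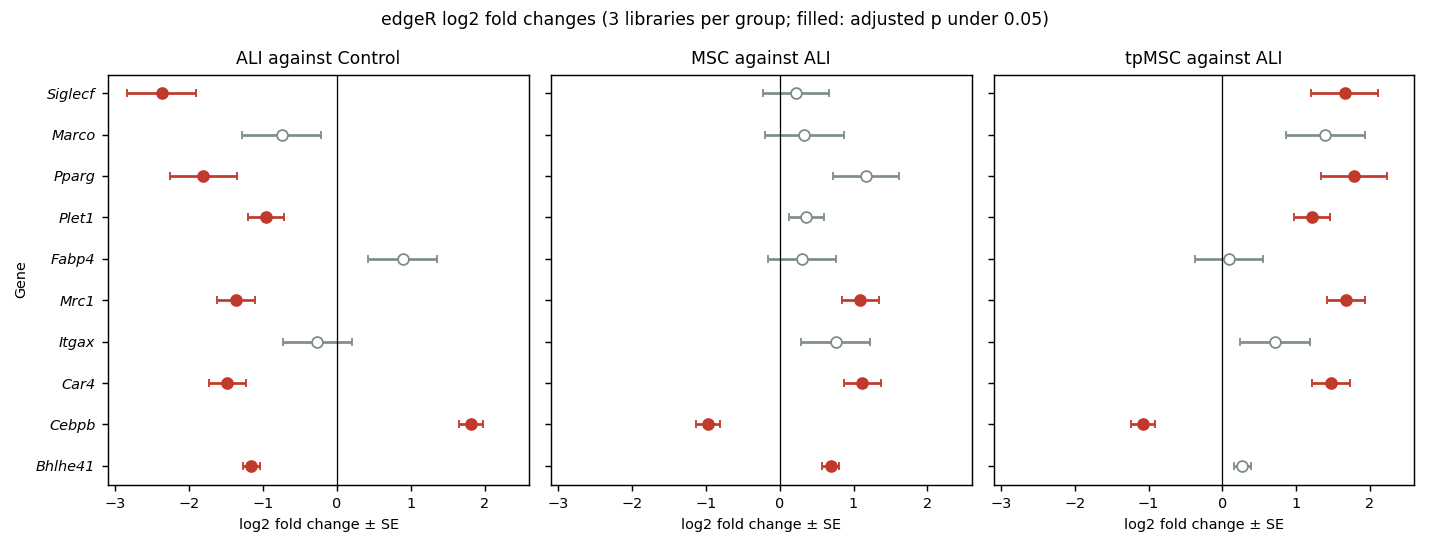
edgeR log2 fold change (x axis) with its standard error for each gene (y axis) in ALI against Control, MSC against ALI and tpMSC against ALI, 3 libraries per group. Filled points passed an adjusted p under 0.05: 7 genes in the first panel, 4 in the second and 6 in the third; the last 2 comparisons share the ALI libraries with the first.

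Treatment with MSC was next set against untreated injury. In MSC lungs 3 of the 10 genes were higher than in ALI (Mrc1, Car4 and Bhlhe41), Cebpb was lower and 6 were not called. Here 10.2% of all genes tested were called, 5.03% as higher and 5.21% as lower. Without overlap between libraries, the same 3 genes lay higher (16.5% of all genes tested did) and Cebpb lower (10.4%). The median log2 fold change was 0.53 for the 10 genes and 0.02 for all genes. The number of calls was 2 without ALI replicate 1 and 2 without ALI replicate 3, and the share of all genes called in those fits was not counted. Removing MSC replicate 2 turned the direction for Siglecf, Marco and Itgax, none of which was called (log2 -0.72, -0.85 and -0.25 in its absence).

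In tpMSC lungs 5 of the 10 genes were higher than in ALI (Siglecf, Pparg, Plet1, Mrc1 and Car4), Cebpb was lower and 4 were not called. Of all genes tested 23.1% were called, 11.6% as higher and 11.5% as lower. The median log2 fold change was 1.3 for the 10 genes, beside 0.01 for all genes. Marco and Bhlhe41 were the genes whose tpMSC libraries were all above the ALI libraries without a call, which made 7 of 10 that lay wholly higher, against 21.2% of all genes tested. Cebpb was the 1 gene that lay wholly lower, against 18.3%. ALI libraries are the reference of both treatment comparisons and are also compared with Control, so the opposite signs across these comparisons share their samples.

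The direct comparison of tpMSC with MSC gave no call for any of the 10 genes with edgeR, where 0.0305% of all genes tested were called, 0.0175% as higher and 0.0131% as lower. Siglecf, Plet1, Mrc1 and Bhlhe41 had an unadjusted p under 0.05, and DESeq2 called 2 genes, Plet1 as higher in tpMSC (adjusted p = 0.0186) and Bhlhe41 as lower (adjusted p = 0.0366). Plet1 lay wholly higher in tpMSC, as 5.18% of all genes tested did, and Bhlhe41 wholly lower, as 8.1% did. These 2 genes had log2 fold changes of 0.85 ± 0.24 (adjusted p = 0.177) and -0.42 ± 0.12 (adjusted p = 0.172). Siglecf had the widest difference, 2.71-fold (log2 1.44 ± 0.45, adjusted p = 0.213). Leaving out MSC replicate 2 gave 4 calls, all higher in tpMSC. The share of all genes called was not counted in that fit or with DESeq2, so these calls cannot be set beside it. The 4 were Siglecf (log2 2.39, adjusted p = 0.0262), Marco (2.25, 0.0441), Plet1 (1.22, 0.0482) and Mrc1 (1.03, 0.0482). Without MSC replicate 1 or 3 no gene was called.

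**Figure D3:**
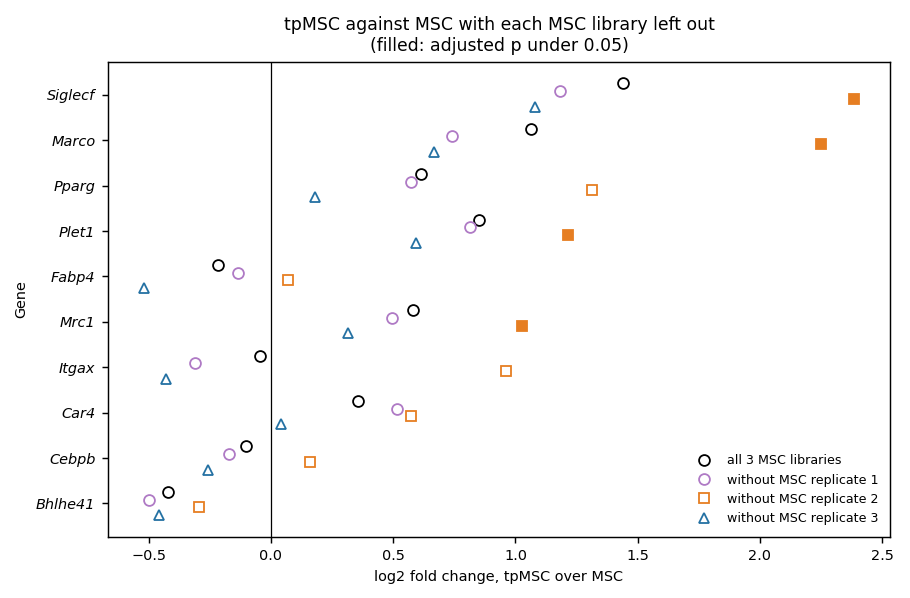
log2 fold change of tpMSC over MSC (x axis) for each gene (y axis) with all 3 MSC libraries and with each left out in turn; filled markers passed an adjusted p under 0.05. The 4 filled markers, for Siglecf, Marco, Plet1 and Mrc1, are those without MSC replicate 2.

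The treated groups were last compared with Control. In MSC, Siglecf and Bhlhe41 were lower and Cebpb was higher, 3 of 10 genes, where 18.7% of all genes tested were called, 10.7% as higher and 8% as lower. The MSC libraries lay wholly below Control for Siglecf, Plet1 and Bhlhe41, against 19.8% of all genes, and wholly above for Cebpb, against 18.2%. Without MSC replicate 2 the number of the 10 genes called was 7. Marco (log2 -1.60, adjusted p = 0.011), Pparg (-1.34, 0.0406), Plet1 (-0.96, 0.0103) and Mrc1 (-0.72, 0.0159) were then called lower as well. The share of all genes called without that library was not counted. In tpMSC, Bhlhe41 was lower and Cebpb higher, 2 of 10 genes, where 15.9% of all genes tested were called, 9.1% as higher and 6.79% as lower. The tpMSC libraries lay wholly below Control for Siglecf and Bhlhe41, against 21.7% of all genes, and wholly above for Plet1 and Cebpb, against 17.1%. The other 8 had log2 differences from Control of -0.72 (Siglecf) to 0.97 (Fabp4), a p that misses the threshold not showing that they were equal.

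The MSC libraries did not hold 1 common level. Replicate 2 was the highest of the 3 for 10 of 10 genes, against 34.1% of all genes tested, and replicate 3 was the lowest for 9 of 10, against 33.6%. Both held at once for 9 of 10 genes, against 19.1%. Replicate 2 was at least 2-fold above replicate 3 for 8 of 10 genes, which 7.94% of all genes reached. The ratio was 6.06 for Pparg, 5.67 for Marco, 5.08 for Itgax and 4.62 for Siglecf, and it was least for Cebpb (1.73) and Bhlhe41 (1.24). Replicate 3 was the lowest of all 12 libraries for 3 of 10 genes (Siglecf, Marco and Pparg), against 5.83% of all genes tested. Replicate 2 was the highest of all 12 for 2 of 10 (Fabp4 and Itgax), against 7.64%.

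Each treated library was also placed by whether its log2 level was nearer the Control mean or the ALI mean. MSC replicate 2 was nearer Control for 8 of the 10 genes, against 39.3% of all genes tested. Replicate 1 was nearer Control for 4 (Pparg, Mrc1, Car4 and Cebpb), against 57.3%, and replicate 3 for 3 (Fabp4, Cebpb and Bhlhe41), against 44.4%. The tpMSC libraries were nearer Control for 8, 8 and 7 of the 10 genes, against 59.1%, 56.9% and 44% of all genes. Over all genes tested, the root mean square log2 distance of each treated library to the Control and ALI means was also taken. The 2 distances were 0.818 and 0.816 for MSC replicate 1, 1.01 and 0.794 for replicate 2, and 1.03 and 0.799 for replicate 3. They were 0.822 and 0.965, 0.827 and 0.991, and 0.933 and 0.846 for tpMSC replicates 1, 2 and 3. All 3 MSC libraries and tpMSC replicate 3 were nearer ALI, MSC replicate 1 by little. MSC replicate 3 lay inside the ALI range for Plet1 and Itgax, below it for Siglecf, Marco, Pparg, Fabp4 and Cebpb, and above it for Mrc1, Car4 and Bhlhe41. Its pattern was thus not that of the ALI libraries for all genes, since Cebpb at 75.37 FPKM was the lowest of any injured library. Neutrophil markers summed to 471.31, 717.58 and 989.55 FPKM in MSC replicates 1, 2 and 3 and interstitial macrophage markers to 306.83, 396.91 and 434.90. Monocyte markers summed to 213.18, 244.30 and 196.76 FPKM, and dendritic cell markers to 22.69, 12.99 and 16.49. Capillary endothelium markers summed to 455.83, 375.70 and 354.06 FPKM, and adipocyte markers to 23.35, 9.76 and 1.34. Of these lists, the monocyte markers alone were highest in replicate 2 and lowest in replicate 3. The part of these cells in the differences was not tested.

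**Figure D4:**
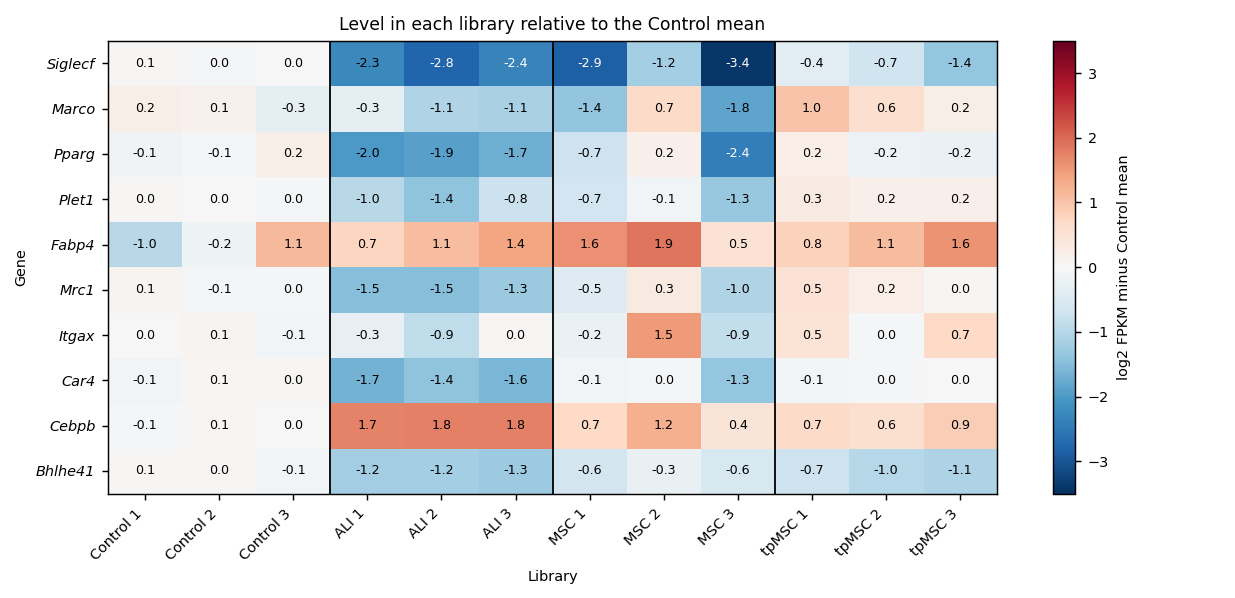
log2 FPKM of each gene (rows) in each of the 12 libraries (columns) minus the mean of the Control libraries on the log2 scale, with the value printed in each cell; blue is below Control and red above. In MSC replicate 3 the values for Siglecf, Marco and Pparg are the lowest of their rows (-3.4, -1.8 and -2.4), beside -1.2, 0.7 and 0.2 in MSC replicate 2.

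Profiles over the 12 libraries were then compared as the root mean square difference of centred log2 counts scaled to library size, among 15421 genes. Mrc1 and Car4 were the most alike of the 10 genes (0.25), followed by Mrc1 and Plet1 (0.28). The genes most like each were Il18 and Slc6a4 for Siglecf (0.43 and 0.45), B3gnt7 and Cd248 for Marco (0.48 and 0.53), and Mrgprf and Slco2b1 for Mrc1 (0.18 and 0.21). Plet1 was most like Rflna and B3gnt7 (0.17 and 0.21), Itgax like Htra3 and Tbxas1 (0.30 and 0.30), and Car4 like Popdc2 and Slco2b1 (0.20 and 0.23). Fabp4 was nearest to Fhl2 and Gm11451 (0.30 and 0.40) and Pparg to F7 and Klrb1b (0.27 and 0.28). Cebpb was closest to Gda and Spi1 (0.098 and 0.10), and for Bhlhe41 Sirt5 was among the nearest (0.18).

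Of 9 other alveolar macrophage markers, 4 fell in ALI and 1 rose. Fabp1, a fatty acid carrier, went from between 8.87 and 13.44 FPKM in Control to between 0.07 and 0.43 in ALI, and was at 0 to 0.52 in MSC and 3.15 to 7.03 in tpMSC. Abcg1, a cholesterol exporter, fell from 13.1 ± 0.956 to 3.55 ± 0.766 FPKM and Atp6v0d2, a proton pump subunit, from 19.5 ± 1.92 to 3.09 ± 0.248. Ctsk, a cathepsin, rose from 19.7 ± 1.88 to 46.5 ± 9.45 FPKM. Against ALI, 4 of the 9 rose in MSC and 5 in tpMSC, and none fell. Their summed level was 282.40, 793.69 and 109.25 FPKM in MSC replicates 1, 2 and 3, the same order of libraries as for 9 of the 10 identity genes. Chil3, a chitinase-like protein singled out after its values were seen, made up most of this sum in replicates 1 and 2, with 172.1, 551.7 and 11.98 FPKM. Without it the sum of the other 8 was 110.3, 241.99 and 97.27 FPKM.

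The signals that set up the programme were read beside the genes. All 14 genes on that list were called in ALI, 10 as higher and 4 as lower. Csf2, which codes for GM-CSF, was at 2.40 to 2.67 FPKM in Control, 17.19 to 22.01 in ALI, 5.42 to 10.13 in MSC and 3.83 to 5.98 in tpMSC, and rose in ALI by 2.98 ± 0.26 on the log2 scale (adjusted p = 7.22e-06). Csf2rb, the signalling chain of its receptor, rose as well (log2 1.95 ± 0.36, adjusted p = 0.00113). Csf2ra, the chain that binds GM-CSF, went the other way, from 6.83 to 18.15 FPKM in Control to 0, 0.10 and 0.21 in the ALI libraries (log2 -6.64 ± 1.57, adjusted p = 0.00538). Its values were 7.02 and 15.57 FPKM in MSC replicates 1 and 2, exactly 0 in MSC replicate 3 as in ALI replicate 1, and 9.71 to 23.86 in tpMSC. How reads were assigned to Csf2ra was not tested, and it is not known whether these 0 values, and the fall computed with them, measure its transcript. Spi1, which codes for PU.1, and Tgfbr1, a TGF-beta receptor, both rose in ALI, to 39.8 ± 4.88 and 25.7 ± 1.47 FPKM.

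The 10 lipid-handling targets of PPAR gamma did not move one way in ALI: 4 rose, 4 fell and 2 were not called. Angptl4, a lipase inhibitor, rose from 9.02 ± 1.60 to 41.2 ± 2.79 FPKM and Nr1h3, the sterol receptor LXR alpha, from 15.7 ± 1.93 to 23.8 ± 0.530. Acaa1b, a peroxisomal thiolase, fell from 11.2 ± 1.20 to 1.89 ± 0.300 FPKM, and Abcg1 is on this list too. In tpMSC against ALI 3 of the 10 rose and 4 fell, and in MSC 1 rose and 2 fell.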

How the data were processed

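Whole-lung RNA of 12 mouse libraries was read from oligo(dT)-selected, dUTP-marked, paired NovaSeq libraries, per the labels' protocols. The authors deposited, per the file headers, a raw count and an FPKM value per gene and library. Tools listed in the submitters' processing notes are HISAT2 2.0.4, cutadapt 1.9, edgeR, DESeq2 and StringTie 1.3.4d, with build GRCm38. The sources used here do not give the counting tool, its strand setting or the annotation release. Positions in the table equal GENCODE M21 (GRCm38) for 1.88% of 35571 matched IDs, so GENCODE positions are printed.

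The quasi-likelihood test of edgeR 4.0.16 (R 4.3.3) was run on the counts of genes kept by filterByExpr, with TMM scaling, a mean for each of the 4 groups and all 12 libraries, with Benjamini-Hochberg adjustment over 22915 genes and calls at 0.05. The standard error is the log2 fold change over the root of F. FPKM values were used as deposited by the authors. The largest median shift of all genes was 0.0223 (log2). Scripts were tested on simulated data. Alternatives were DESeq2 1.42.0, its size factors in edgeR, no filter, a replicate block, limma 3.58.1 on log2(FPKM + 0.1), and each library left out. Likeness used genes with a mean of 1 FPKM or more in a group and a prior count of 2.

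The 10 genes, the lists beside them and the tests were chosen with earlier results of these data known. Named genes are the 10, up to 4 per list with the smallest p in ALI against Control, the GM-CSF axis, and the 2 most alike genes each. A few genes that this rule names are not reported here. Same-numbered replicates did not deviate together (18 pairs, r from -0.108 to 0.104), so the numbers were not used as a pairing. Counts of replicates differed by far more than sampling noise.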

Additional observations from a re-analysis of the deposited data

How the results depend on the processing

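Over 17 alternatives, the falls of Siglecf, Pparg, Plet1, Mrc1, Car4 and Bhlhe41 and the rise of Cebpb in ALI kept their call, with the highest adjusted p for Plet1 (0.0371). With DESeq2 size factors in edgeR no call or direction changed. DESeq2 called 2 genes between tpMSC and MSC in place of 0, and also Marco in tpMSC against ALI and Plet1 in MSC against Control (adjusted p = 0.0473). The replicate block, with numbers that do not pair the samples, left the counts of calls at 7, 4, 6, 0, 3 and 2, and turned the uncalled Itgax difference between tpMSC and MSC to 0.073. Limma turned the same difference to 0.25 and Siglecf in MSC against ALI to -0.006, and without a filter Car4 in tpMSC against Control was 0.004.

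With 1 library left out at a time, the number of genes called ran from 7 to 8 in ALI against Control, 2 to 5 in MSC against ALI, 4 to 8 in tpMSC against ALI, 0 to 4 in tpMSC against MSC, 2 to 7 in MSC against Control and 2 to 3 in tpMSC against Control. The share of all genes called was not counted in these fits or in the other alternatives, so the numbers cannot be set beside it. The log2 values of the uncalled results that changed sign ran from -0.72 to 0.58 (Siglecf), -0.85 to 0.73 (Marco) and -0.25 to 1.14 (Itgax) in MSC against ALI. In tpMSC against ALI that of Fabp4 ran from -0.15 to 0.26. In tpMSC against MSC the ranges were -0.521 to 0.069 (Fabp4), -0.43 to 0.96 (Itgax) and -0.26 to 0.16 (Cebpb). Against Control they were -0.52 to 0.87 for Itgax in MSC, and -0.177 to 0.079 for Pparg and -0.059 to 0.021 for Car4 in tpMSC. The cause of these changes was not tested. With 3 libraries per group, a missing call does not show equal levels.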
